A study of Homo sapiens with 6 samples.

Results

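To describe how the enzymes that make and use glutamine and glutamate were expressed with and without intact NRF2, 9 genes were followed: GLS2, GLUL, GLUD1, GOT1, GOT2, GPT2, PYCR1, ALDH5A1 and BCAT1. They were chosen by name for their place in glutamine and glutamate metabolism, and all 9 were found once each among the 58884 genes of the expression table. RNA-seq compared KYSE70, a human cell line established from an esophageal squamous cell carcinoma (ESCC) and carrying a mutant NFE2L2 gene, with NRF2null-KYSE70, in which NFE2L2, the gene of the transcription factor NRF2, had been cut with CRISPR-Cas9. Both lines grew in RPMI1640 medium with fetal bovine serum, penicillin and streptomycin, without any drug, and each gave 3 libraries. NRF2null-KYSE70 was expanded from a single clone, and its makers found an NFE2L2 transcript variant that the guide RNA does not reach still expressed in it. Any difference therefore separates this clone from its parental line, and an effect of NRF2 cannot be told apart from other properties of the clone. Nothing states that the libraries came from separate cultures, so p-values measure only the spread between these libraries, which may be technical. Because the columns of the table carry no replicate number, libraries are numbered in column order.

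Glutamine is the main carrier of nitrogen between cells, and proliferating tumor cells often consume it in large amounts. Glutaminase turns it into glutamate in the mitochondria, and glutamine synthetase, encoded by GLUL, runs the reverse step. Glutamate then feeds carbon into the citrate cycle as 2-oxoglutarate, through glutamate dehydrogenase or through transaminases that pass its nitrogen on to aspartate, alanine, serine or the branched-chain amino acids. It is also the precursor of proline, of the transmitter GABA and, with cysteine and glycine, of glutathione, whose synthesis NRF2 is known to promote.

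The libraries held from 52072801 to 63975313 reads counted in genes. Values are normalized counts, that is, reads divided by a size factor for the library. NFE2L2 itself had 9839, 9906 and 10040 normalized counts in KYSE70 and 5803, 6041 and 6434 in NRF2null-KYSE70. The count of the targeted gene was thus lower in every library of the clone, with much of it left. Of its exon bases, 23.4% overlap exons of HNRNPA3 on the other strand and 13.6% a long non-coding RNA on the same strand. How far reads of other genes entered the NFE2L2 count was not tested. All 12 squamous and epithelial markers examined, KRT5 and TP63 among them, reached a mean of 10 normalized counts over the 6 libraries. KRT7 was low in KYSE70, at 7.11, 28.1 and 1.05 normalized counts, against 57.8, 53.9 and 62.8 in the clone. The summed level of the 12 was 430792 to 437422 normalized counts in KYSE70 and 325308 to 336017 in the clone. By gene the markers were divided, since 6 were higher in every library of the clone (KRT6A, KRT7, KRT17, SOX2, EPCAM and CDH1) and 6 lower (KRT5, KRT8, KRT18, TP63, DSG3 and PERP). Of 15 markers of fibroblasts, leukocytes and endothelial cells, 4 (COL1A1, COL3A1, PTPRC and VWF) reached a mean of 10 normalized counts, and 4, COL1A2, DCN and KDR among them, had no read in any library. The summed level of the fibroblast markers was 1384 to 1618 in KYSE70 and 485 to 638 in the clone, that of the leukocyte markers 0 to 12.7 and 42.2 to 58.2, and that of the endothelial markers 133 to 149 and 275 to 450. Mitochondrial transcripts took 1.85% to 2.05% of the reads in KYSE70 and 2.26% to 2.29% in the clone. The part of these differences in the results for the enzymes was not tested.

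Of the 9 enzyme genes, GLUL was more than doubled and GLS2 fell to under 30% of its parental level in NRF2null-KYSE70, and both passed the threshold. PYCR1, GPT2, GLUD1 and GOT1 rose and ALDH5A1 fell by smaller amounts, whereas GOT2 and BCAT1 did not pass the test. The threshold was a limma adjusted p under 0.05 together with a log2 fold change of 1 or more in either direction. It was passed by 2 of 9 enzyme genes (22.2%), where 14.7% of the 15994 genes tested passed it, 7.23% upward and 7.43% downward. The same 2 also passed limma's stricter treat test against a log2 fold change of 1, as did 6.06% of all tested genes. At an adjusted p under 0.05 and any size of change, 5 of the 9 rose, against 29.3% of all tested genes, and 2 fell, against 28.3%. Together these 7 are 77.8% of the enzyme genes, against 57.6% of all genes. All libraries of one line lay above all of the other for 8 of the 9 genes, against 63.4% of all genes. The median log2 fold change of the 9 was 0.38, against -0.0070 over all tested genes, and all 9 passed the filter on low values.

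**Figure D1:**
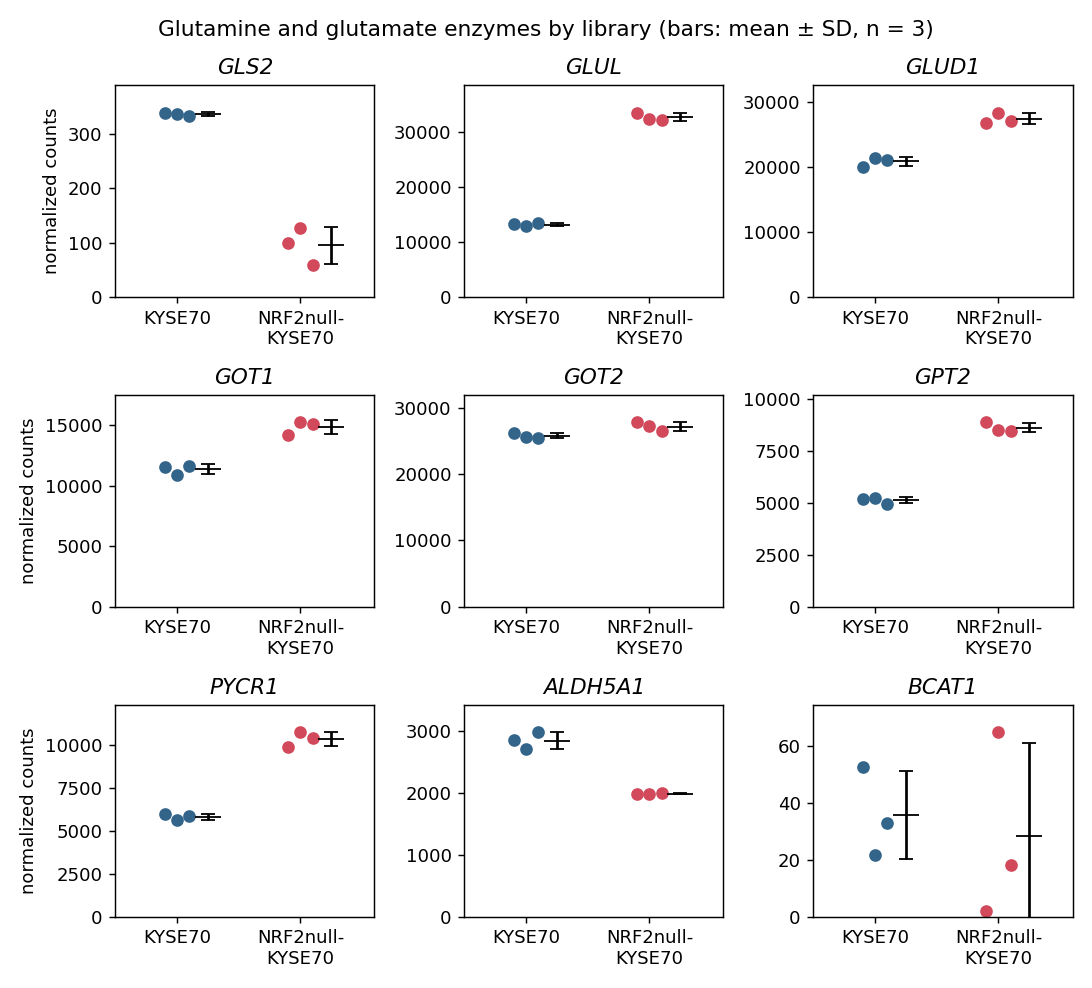
Normalized counts of the 9 enzyme genes in the 3 KYSE70 libraries (blue) and the 3 NRF2null-KYSE70 libraries (red), with an axis from 0 for each gene. The bar beside the points is the mean ± SD (n = 3), and it is cut off at 0 for BCAT1 in the clone, the gene whose libraries overlap between the lines.

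The pair of genes for the interconversion of glutamine and glutamate moved in opposite directions. GLUL, whose product makes glutamine from glutamate and ammonia, spans bases 182378098 to 182392206 of chromosome 1 (hg38, minus strand). It had 13202, 12793 and 13371 normalized counts in KYSE70 and 33438, 32362 and 32148 in NRF2null-KYSE70. Every library of the clone was far above every parental library, and the libraries of each line lay within a few percent of each other. The means were 13122 ± 297 and 32649 ± 691 (SD, n = 3 in each line), a 2.49-fold difference. The log2 fold change was 1.32 (SE 0.043, 95% interval 1.22 to 1.41, limma adjusted p = 9.83e-11), and 10.6% of all tested genes had a larger absolute change. No annotated exon of another gene overlaps it, and the 4 GLUL pseudogenes listed held 7 reads in the 6 libraries together.

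GLS2, the liver-type glutaminase, which releases glutamate from glutamine, spans bases 56470944 to 56488414 of chromosome 12 (minus strand). It had 339, 337 and 332 normalized counts in KYSE70 and 98.4, 127 and 59.4 in NRF2null-KYSE70. The clone was below the parental line in every library and was more variable, with a coefficient of variation of 35.9% against 1.01%. Its values there rested on 97, 130 and 52 reads. The means were 336 ± 3.39 and 95.1 ± 34.2 (SD, n = 3 in each line), so that the clone had 28.3% of the KYSE70 mean. On the log2 scale the difference was -1.88 (SE 0.23, 95% interval -2.38 to -1.37, limma adjusted p = 1.68e-05). The gene has neighbours that were also lower in the clone: the 40 nearest tested protein-coding genes on the same arm had a median log2 fold change of -0.66, and GLS2 stood at -1.22 (limma adjusted p = 0.000585) once that was subtracted.

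A further limit concerns the counting of GLS2. Of its 4141 annotated exon bases, 3194 (77.1%) overlap exons of SPRYD4 on the other strand, and whether reads were counted by strand was not stated. SPRYD4 had 965, 901 and 1021 normalized counts in KYSE70 and 439, 548 and 590 in NRF2null-KYSE70, so it too was lower in every library of the clone (log2 fold change -0.88, SE 0.11, limma adjusted p = 2.06e-05). How far reads of either gene entered the count of the other was not tested.

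Promoter windows were read for these genes because GLUL and GLS2 changed most. RefSeq windows (GRCh38.p14, 250 bases before to 50 after a start site) were at hand for 7 of the 9 genes, in 12 windows. They were searched on both strands for TGACNNNGC, the core of the antioxidant response element that NRF2 binds, and for TGATGNAA, the core of the amino acid response element that ATF4 binds. The first is held by 13.3% and the second by 3.62% of all 35116 windows. The GLUL window (chr1:182391741-182392040, minus strand, the upstream window of its 2) and the GLS2 window (chr12:56488112-56488411, minus strand) are printed 5′ to 3′ in lower case throughout, because neither motif was found in them.
GLUL: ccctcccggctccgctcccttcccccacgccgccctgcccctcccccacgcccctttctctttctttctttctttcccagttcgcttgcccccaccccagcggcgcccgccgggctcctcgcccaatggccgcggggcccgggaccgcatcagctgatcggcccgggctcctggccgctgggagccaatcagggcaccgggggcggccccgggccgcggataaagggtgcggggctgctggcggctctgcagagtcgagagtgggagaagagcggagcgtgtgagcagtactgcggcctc
GLS2: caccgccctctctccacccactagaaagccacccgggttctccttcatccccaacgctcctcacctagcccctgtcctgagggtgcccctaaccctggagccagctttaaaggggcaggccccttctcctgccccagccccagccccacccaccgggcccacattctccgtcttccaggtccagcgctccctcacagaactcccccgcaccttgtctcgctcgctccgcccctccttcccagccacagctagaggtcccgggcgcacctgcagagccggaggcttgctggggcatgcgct
The GLUL window is 72.7% G or C with 29 CpG steps and the GLS2 window 67.3% with 14, against medians of 58.7% and 14 over all windows. A match or its absence in so short a window describes letters only.

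**Figure D2:**
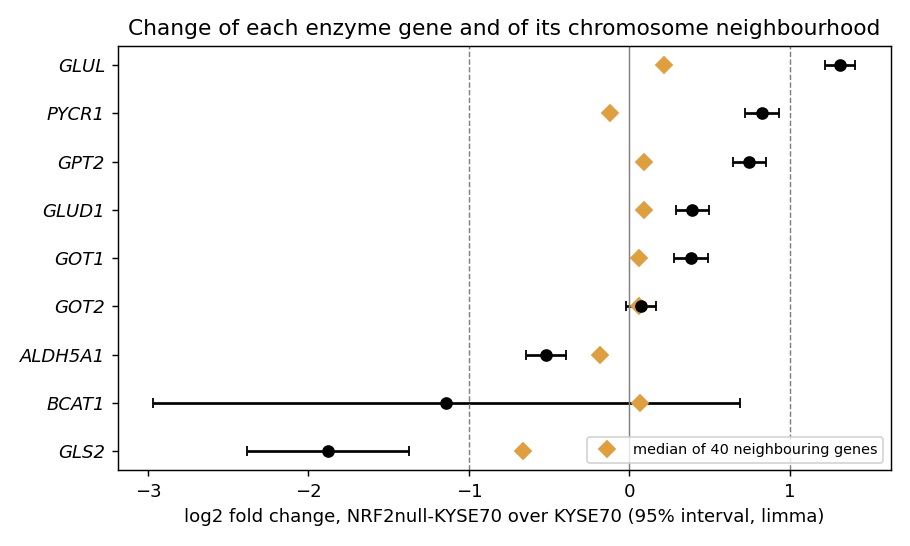
Log2 fold change of each enzyme gene, NRF2null-KYSE70 over KYSE70, with its 95% interval from limma (black), and the median log2 fold change of the 40 nearest tested protein-coding genes on the same chromosome arm (orange diamonds). Dashed lines mark -1 and 1. GLUL and GLS2 lie beyond them with their whole intervals, and GLS2 has the lowest neighbourhood, at -0.66.

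Glutamate dehydrogenase and the aspartate transaminases, which release 2-oxoglutarate from glutamate, were abundant in both lines. GLUD1 and GOT1 rose in the clone by amounts short of the fold cut-off, and GOT2 did not pass the test. GLUD1, at bases 87050202 to 87094843 of chromosome 10, encodes the mitochondrial glutamate dehydrogenase. It had 20094, 21473 and 21169 normalized counts in KYSE70 and 26849, 28431 and 27125 in NRF2null-KYSE70. The lowest library of the clone was above the highest parental library. The gene rose 1.31-fold, with a log2 fold change of 0.39 (SE 0.046, 95% interval 0.29 to 0.49, limma adjusted p = 1.11e-05). Its near-identical retrocopy GLUD2 had only 58.0 ± 4.68 and 78.1 ± 12.4 normalized counts (SD, n = 3 in each line; limma adjusted p = 0.149), and 5 GLUD1 pseudogenes together reached 0.334% of the GLUD1 level. How reads that match several copies were counted was not stated.

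GOT1, the cytosolic aspartate transaminase, spans bases 99396870 to 99430624 of chromosome 10. Its normalized counts were 11584, 10876 and 11674 in KYSE70 and 14225, 15235 and 15109 in the clone. They too did not overlap, and the gene rose 1.31-fold (log2 fold change 0.38, SE 0.048, 95% interval 0.28 to 0.49, limma adjusted p = 1.98e-05). GOT2, its mitochondrial counterpart, spans bases 58707131 to 58734342 of chromosome 16. It had 26201, 25596 and 25466 normalized counts in KYSE70 and 27770, 27160 and 26493 in the clone. The libraries separated by a narrow margin, but the log2 fold change of 0.076 did not pass the test (SE 0.043, 95% interval -0.018 to 0.17, limma adjusted p = 0.153). The sign of the value depended on the scaling, being -0.050 under quantile normalization.

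The promoter windows of these transaminases held a match each, as did one of the 5 windows of BCAT1. The stretch around each match is printed 5′ to 3′ with the match in capitals. GOT2 (chr16:58734344-58734392, minus strand) holds the antioxidant response core from base -56. GOT1 (chr10:99430795-99430842, minus strand), on its opposite strand from base -198, and BCAT1 (chr12:24949122-24949169, minus strand), from base -48, hold the amino acid response core.
GOT2: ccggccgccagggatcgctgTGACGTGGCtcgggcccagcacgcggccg
GOT1: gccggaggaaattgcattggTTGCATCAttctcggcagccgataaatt
BCAT1: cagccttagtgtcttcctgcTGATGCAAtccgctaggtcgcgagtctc
Among the 7 genes with a window, 3 held a match to either core. Of all windows, 13.3% hold the antioxidant response core and 3.62% the amino acid response core. These shares are per window and for each core alone. The count of genes, which had 12 windows among them, therefore cannot be set against them. GOT2, with the antioxidant response core, was the gene with the smallest change. Whether any match bears on the expression of its gene was not tested.

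GPT2 and PYCR1, whose products make alanine and proline from glutamate, rose together by amounts short of the cut-off. GPT2, the mitochondrial alanine transaminase, spans bases 46884362 to 46931289 of chromosome 16. It had 5177, 5242 and 4967 normalized counts in KYSE70 and 8869, 8490 and 8477 in NRF2null-KYSE70. The groups were far apart, and the rise was 1.68-fold (log2 fold change 0.75, SE 0.047, 95% interval 0.65 to 0.85, limma adjusted p = 3.44e-08). GPT, the cytosolic form, was barely expressed, at means of 6.05 and 6.81 normalized counts, and was not tested.

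PYCR1, which carries out the last step of proline synthesis in the mitochondria, spans bases 81932384 to 81942412 of chromosome 17. Its normalized counts were 5959, 5629 and 5883 in KYSE70 and 9899, 10735 and 10386 in the clone. Again no library of the clone came near the KYSE70 range. The gene rose 1.78-fold (log2 fold change 0.83, SE 0.049, 95% interval 0.72 to 0.93, limma adjusted p = 1.98e-08), and its chromosome neighbours had a median of -0.12. Of its 2886 exon bases, 15.6% overlap an antisense RNA and 14.1% overlap MYADML2 on the same strand.

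ALDH5A1, the succinate semialdehyde dehydrogenase that ends the GABA shunt, spans bases 24494867 to 24537207 of chromosome 6. It had 2857, 2708 and 2986 normalized counts in KYSE70 and 1980, 1987 and 1997 in the clone. Every library of the clone was lower, and the gene fell to 69.7% of its KYSE70 mean (log2 fold change -0.52, SE 0.057, 95% interval -0.64 to -0.39, limma adjusted p = 6.34e-06). Its neighbours were lower as well, with a median of -0.18, and relative to them ALDH5A1 stood at -0.34 (limma adjusted p = 0.000282). ABAT, the transaminase one step earlier in the shunt, fell too, from 459 ± 31.3 to 294 ± 26.6 (SD, n = 3 in each line; log2 fold change -0.64, limma adjusted p = 0.000386), on an arm stretch whose median was -0.53. GAD1, which makes GABA from glutamate, had means of 136 and 178 normalized counts (limma adjusted p = 0.0546), and GAD2 was not tested.

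BCAT1, the cytosolic branched-chain transaminase, spans bases 24810024 to 24949101 of chromosome 12 and had low and variable counts. It had 59, 24 and 31 reads in KYSE70, or 52.5, 21.8 and 32.7 normalized counts. In NRF2null-KYSE70 it had 2, 66 and 16 reads, or 2.03, 64.7 and 18.3 normalized counts. The highest and the lowest library were both from the clone, so the groups overlapped completely. The log2 fold change of -1.14 did not pass the test (SE 0.84, 95% interval -2.97 to 0.69, limma adjusted p = 0.268). It was 0.045 (limma adjusted p = 0.947) without NRF2null-KYSE70 library 1 and -2.175 (limma adjusted p = 0.0248) without library 2, so single libraries of the clone set both its sign and its call. DESeq2 and edgeR on recovered reads gave -0.33 and -0.33. BCAT2, the mitochondrial form, had 4697 ± 225 and 4833 ± 190 normalized counts (SD, n = 3 in each line; limma adjusted p = 0.534) and far exceeded BCAT1 in every library.

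Levels of different genes were compared per kilobase of annotated exons. In KYSE70 the order was GOT2, at 6866 ± 105 normalized counts per kilobase, GOT1 at 4694 ± 180, PYCR1 at 2018 ± 59.9, GLUD1 at 1464 ± 50.8, GLUL at 1038 ± 23.5, GPT2 at 806 ± 22.6, ALDH5A1 at 377 ± 18.4, GLS2 at 81.1 ± 0.818 and BCAT1 at 3.12 ± 1.36 (SD, n = 3). No neighbours in this order overlapped in their libraries. In NRF2null-KYSE70 the order differed at a single place. GLUL, at 2583 ± 54.7 normalized counts per kilobase, stood above GLUD1, at 1923 ± 59.2 (SD, n = 3), and again no neighbours overlapped. The place of GLUD1 depended on the length used, since its annotated exons add up to 14283 bases and its canonical transcript to 3300. With canonical lengths, a choice made after seeing the data, GLUD1 came directly after GOT2 in both lines, and the libraries of PYCR1 and GLUL overlapped in the clone. On that scale, GLUL was exceeded by 19.2% of 12794 tested protein-coding genes in KYSE70 and by 7.71% in the clone, and GLS2 by 72.5% and 84.5%.

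**Figure D3:**
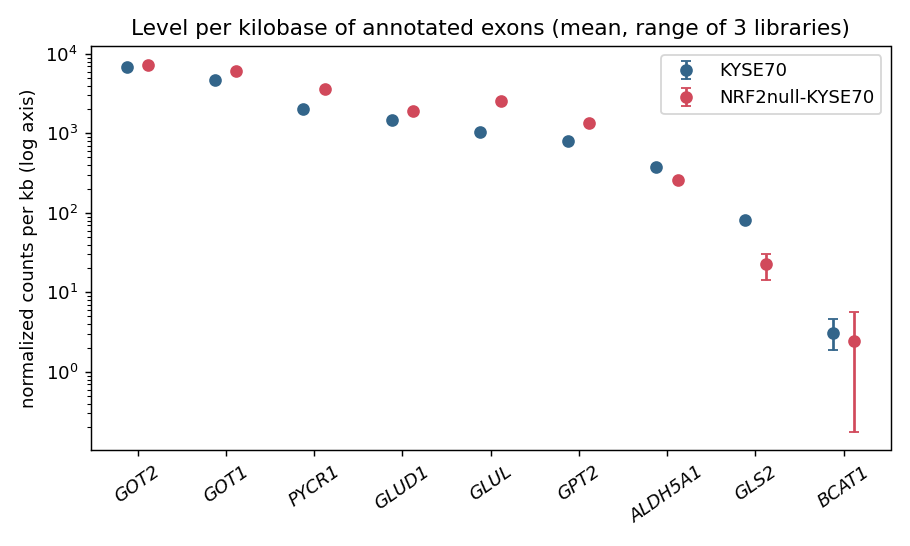
Normalized counts per kilobase of annotated exons, on a log axis, for KYSE70 (blue) and NRF2null-KYSE70 (red), with the mean and the range of the 3 libraries, in the order of the KYSE70 means. GOT2 is highest and BCAT1 lowest in both lines, and GLUL passes GLUD1 in the clone.

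Ratios of paired genes within a library hardly depend on how libraries are scaled. The log2 ratio of GOT1 over GOT2, the cytosolic against the mitochondrial aspartate transaminase, was -1.18, -1.23 and -1.13 in KYSE70 and -0.97, -0.83 and -0.81 in the clone. GOT2 was thus the higher of the pair in every library, and less so in every library of the clone, with a difference of 0.31 on the log2 scale. On a linear scale, GOT1 had 0.442 times the normalized counts of GOT2 in KYSE70 and 0.547 times in the clone. The log2 ratio of GLUD1 over GOT2, which both act on glutamate in the mitochondria, was -0.38, -0.25 and -0.27 in KYSE70 and -0.049, 0.066 and 0.034 in the clone, a difference of 0.32. Neither ratio overlapped between the lines. The exact two-sided permutation p was 0.1 for both, the smallest that 3 libraries against 3 allow, and 0.12 after Benjamini-Hochberg adjustment over the 6 pairs tested, so neither could pass a threshold of 0.05 in this design. BCAT1 over BCAT2 overlapped between the lines (exact permutation p = 0.5, adjusted 0.5).

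**Figure D4:**
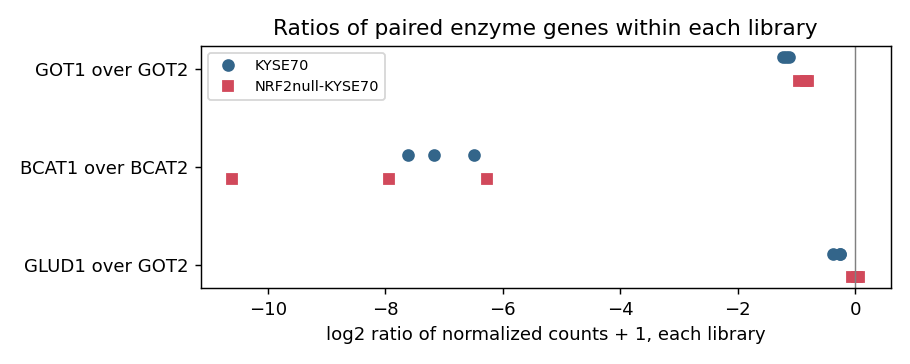
Log2 ratio of the normalized counts (+ 1) of paired enzyme genes in each library of KYSE70 (blue circles) and NRF2null-KYSE70 (red squares). The lines are apart for GOT1 over GOT2 and GLUD1 over GOT2, and BCAT1 over BCAT2 is spread widely.

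Genes around these enzymes were compared by role. Of 64 other genes of glutamine and glutamate metabolism and transport, 59 reached the mean of 10 normalized counts set for testing. There, 8 (13.6%) rose past both thresholds and none fell past them, against 7.23% and 7.43% of all genes. DESeq2 and edgeR on recovered reads also called 8 rises and 0 falls. Total scaling left 6 rises, without GGH and SLC7A5, and quantile normalization 7, without GGH. The lowest log2 fold change in the list was -0.72, of NAGS, which passed both thresholds downward without KYSE70 library 2. The count of falls at an adjusted p under 0.05 was 10 (16.9%), and that of rises 30 (50.8%), against 28.3% and 29.3%. The split of 30 and 10 became 26 and 13 under quantile normalization, 29 and 11 under TMM scaling and 25 and 15 under total scaling. Their median log2 fold change was 0.17. Of the 8, ASNS, PSAT1, SLC1A3 and PRODH passed both thresholds whichever library was left out, whereas GFPT2 was lost without KYSE70 library 1, GGH without KYSE70 libraries 1 or 2 or NRF2null-KYSE70 library 3, SLC7A5 without KYSE70 library 3 or NRF2null-KYSE70 library 1, and SLC38A5 without KYSE70 library 2 or NRF2null-KYSE70 libraries 1 or 2. The list was not chosen blind to earlier results of these data, and no set test was made.

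Carriers in the plasma membrane mostly rose, with 8 of 10 higher and 1 lower at a limma adjusted p under 0.05. Of all tested genes, 29.3% were higher and 28.3% lower at that threshold. The counts of the other roles below use the same threshold, stand beside the same shares and rest on few genes each. SLC1A3, which takes up glutamate and aspartate, rose from 1725 ± 149 to 4570 ± 32.2 normalized counts (SD, n = 3 in each line; log2 fold change 1.41, limma adjusted p = 2.23e-09). SLC7A5, which exchanges glutamine for leucine and other large amino acids, rose from 76825 ± 5527 to 156640 ± 18508 (SD, n = 3 in each line; log2 fold change 1.02, limma adjusted p = 2.2e-07), and SLC38A5 rose from a low mean of 15.8 to 36.5 (log2 fold change 1.14, limma adjusted p = 0.038). SLC1A5, a main importer of glutamine, did not pass the test (log2 fold change 0.10, limma adjusted p = 0.148). The carrier that fell was SLC7A11, which exports glutamate for cystine and is a known NRF2 target, with a log2 fold change of -0.49 (limma adjusted p = 3.33e-05). Of the 5 mitochondrial carriers, SLC25A11 was lower (log2 fold change -0.32, limma adjusted p = 0.000226) and the other 4 did not pass the test.

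Of the enzymes that use the amide nitrogen of glutamine, 6 of 10 were higher and 1, NADSYN1, lower. ASNS, the asparagine synthetase, rose from 91.5 ± 19.5 to 334 ± 23.9 normalized counts (SD, n = 3 in each line; log2 fold change 1.87, limma adjusted p = 1.41e-06). GFPT2, of hexosamine synthesis, rose from a mean of 58.2 to 125 (limma adjusted p = 0.0052). PPAT and GMPS, of purine synthesis, and GFPT1 rose by log2 fold changes of 0.84, 0.76 and 0.70, the limma adjusted p-values running from 1.22e-08 to 5.58e-07. Purine enzymes did not all rise, since PFAS had a log2 fold change of -0.15 (limma adjusted p = 0.0559).

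Among other transaminases, PSAT1 of serine synthesis rose from 20930 ± 913 to 64447 ± 3649 normalized counts (SD, n = 3 in each line; log2 fold change 1.62, limma adjusted p = 1.03e-10), and with KYAT3 and OAT 3 of the 5 tested rose, OAT no longer passing under quantile normalization or total scaling. In proline metabolism 4 of 5 rose, PRODH, ALDH4A1 and ALDH18A1 among them. PRODH, which breaks proline down, went from 12.4 ± 2.96 to 33.0 ± 3.18 (limma adjusted p = 0.00973). ALDH18A1, which starts proline synthesis, had a log2 fold change of 0.14 (limma adjusted p = 0.043) that was lost under TMM and total scaling and changed sign under quantile normalization. GGH, a hydrolase of folate glutamate tails, rose just past the cut-off (log2 fold change 1.02, limma adjusted p = 8.46e-08). FPGS, which adds those tails, fell (log2 fold change -0.23, limma adjusted p = 0.00256). Its chromosome neighbours had a median of -0.50, so FPGS fell less than its surroundings. Of the genes for breaking down branched-chain keto acids, DBT, BCKDHB and PPM1K rose (PPM1K not under total scaling). BCKDK, the kinase that inhibits the step, fell (log2 fold change -0.60, limma adjusted p = 8.5e-06). Its chromosome neighbours had a median of -0.68, so BCKDK was not lower than its surroundings. The enzymes around the citrate cycle were divided, with 4 of 11 higher (OGDH, DLST, MDH2 and IDH3A) and 4 lower (ME2, IDH1, ME1 and DLD), and 2 and 6 under quantile normalization. ME2 had a log2 fold change of -0.65, on an arm stretch whose median was -0.53. IDH1 (log2 fold change -0.59, limma adjusted p = 1.18e-06) is an enzyme that makes 2-oxoglutarate in the cytosol.

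**Figure D5:**
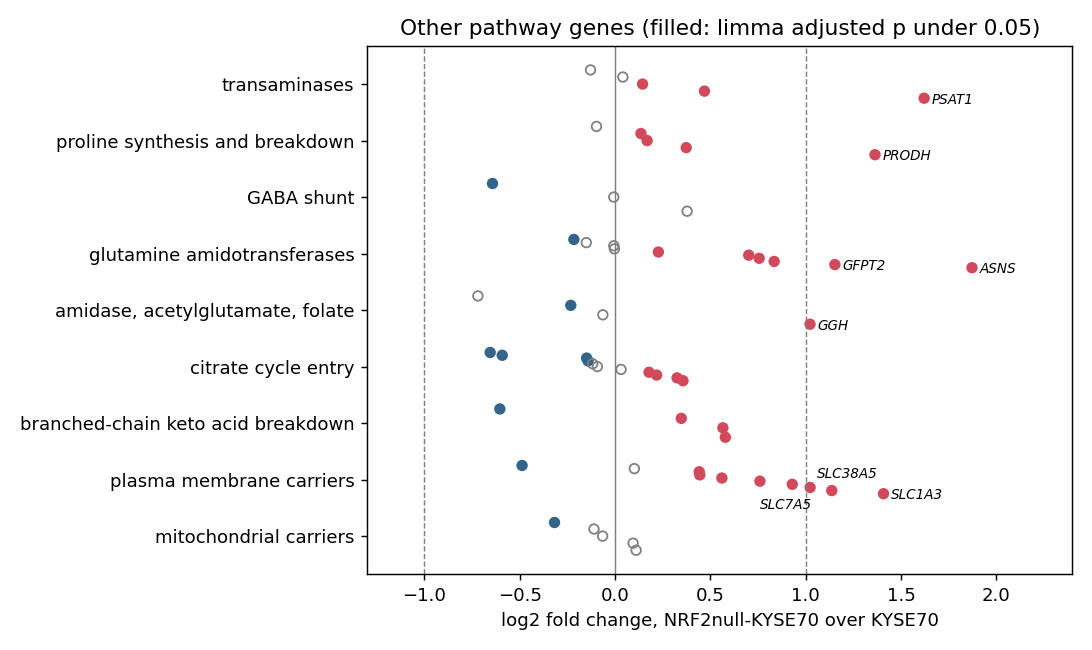
Log2 fold change, NRF2null-KYSE70 over KYSE70, of tested pathway genes other than the 9 enzymes, by role. Filled points have a limma adjusted p under 0.05 (red higher, blue lower), dashed lines mark -1 and 1, and the 8 genes past both thresholds are named, all of them higher in the clone.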

How the data were processed

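RNA-seq values of 6 libraries, 3 per cell line, were used. To make them, the authors used STAR with hg38 for alignment, featureCounts for counting and DESeq2 for normalization. The deposited values are a signal in normalized counts, that is, reads divided by 1 size factor per library. Strand and multi-mapping settings were not given in the sources used here. Whole reads were recovered from them (100% of values within 0.05 reads). Positions and lengths came from GENCODE v44.

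The test was limma 3.58.1 (lmFit, eBayes with trend, two-sided) on log2(normalized count + 1) for genes with a mean of at least 10, with Benjamini-Hochberg adjustment over all of them. Fold changes are differences of mean log values, so for low genes the added 1 shrinks them while 1 low library can enlarge them. DESeq2 1.42.0 and edgeR 4.0.16 on recovered reads were alternatives (2342 and 2357 genes past both thresholds, against 2344 by limma), and the fit was tested on simulated data. Ratios used an exact permutation test. Named are the 9 genes, pathway genes past both thresholds, partners of the ratios and the 3 genes most like GLS2. Other named genes were chosen after their values were seen. The genes and lists were chosen with earlier results of these data known. Results for some genes of the lists are not reported here.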

Additional observations from a re-analysis of the deposited data

How the results depend on the processing

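GLUL and GLS2 stayed past both thresholds under all 18 alternatives run for them, with log2 fold changes from 1.10 to 1.33 and from -2.12 to -1.22. GLUD1, GOT1, GPT2, PYCR1 and ALDH5A1 kept direction and call at an adjusted p of 0.05 in all 18, the highest adjusted p being 0.00334, for GOT1. GOT2 changed sign under quantile normalization (-0.050), and BCAT1 did so without NRF2null-KYSE70 library 1 (0.045), passing both thresholds without library 2 (-2.175). The cause of the former was not tested. BCAT1 was not tested with a filter at a mean of 50. The count of 2 enzyme genes became 7 at an adjusted p alone and was 2 or 3 with any library omitted, BCAT1 being the gene added without NRF2null-KYSE70 library 2. The 8 pathway genes became 40 at an adjusted p alone and 3 (ASNS, PSAT1 and SLC1A3) with the treat test. They were 6 under total scaling (GGH and SLC7A5 lost), with neighbours' medians subtracted (GGH and SLC38A5 lost) and with a filter at a mean of 50 (PRODH and SLC38A5 not tested), and 7 under quantile normalization (GGH lost). They ranged from 6 to 7 with a library left out. Under total scaling the median gene stood at -0.082 in log2 terms. No paired analysis was possible because the columns name only the cell line. Depth most limits BCAT1, with 114 reads in KYSE70 and 84 in the clone, and GLS2, with 279 in the clone.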

Other observations

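Among 11079 protein-coding genes averaging 100 normalized counts or more, those whose log2 values over the 6 libraries were most like GLS2 were CEP89 (Pearson r = 0.998), PRKAR2B (0.997) and BTN3A2 (0.997). All 3 were lower in NRF2null-KYSE70, as GLS2 was. PRKAR2B, a regulatory subunit of protein kinase A, went from 372 ± 16.6 to 120 ± 39.0 normalized counts (SD, n = 3 in each line; log2 fold change -1.67, limma adjusted p = 1.5e-05), and so was nearest to GLS2 in level as well. CEP89 and BTN3A2 fell less, with log2 fold changes of -0.44 and -0.51. The 6 libraries share 2 groups, so such likeness rests largely on the difference between the lines and is given as a description only.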
